A study of Mus musculus with 11 samples.

Results

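Circadian clock genes were followed in mouse microglia, the resident macrophages of the brain, after sorting from adult or newborn brain and after culture with or without niche cytokines. The set was fixed by name with earlier results of these data known, so its comparison with all genes is descriptive. It comprised 10 genes: the repressors Per1, Per2, Per3, Cry1 and Cry2, the activator Clock, the output transcription factors Dbp and Tef, and the nuclear receptors Nr1d1 and Nr1d2. A gene was found on the array by matching the RefSeq accession of a probe to the gene symbol. Of the 10 genes, 8 had a matched probe, and these 8 were among 19555 genes tested in all. Clock and Tef were not analysed here.

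All cells came from C57BL/6N mice. A_FACS were microglia of adult female mice, sorted by flow cytometry and lysed without culture (2 arrays). NB_FACS were microglia of newborn mice of both sexes, sorted in the same way (3 arrays). NB_Control were microglia of newborn mice that had grown for weeks in flasks of mixed glia with added L-929 conditioned medium. They were then shaken off and kept for 1 day in serum medium (3 arrays). NB_Stim were handled like NB_Control but with 3 added human factors, each at 100 ng/mL: CX3CL1, IL-34 and TGF-β1 (3 arrays). Age and sex were not separated between A_FACS and NB_FACS. Both cultures differed from NB_FACS in isolation and in the weeks in flasks as well as in the last day of culture. The hour of the day at which cells were collected is not given in the sources used here, and each group is a single snapshot of genes that cycle over the day. In such bulk RNA, fewer cells of a type and less RNA per cell cannot be told apart.

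The molecular clock is a feedback loop of transcription and translation. CLOCK and its partner BMAL1, the product of Arntl, bind E-box sequences and activate Per and Cry genes as well as Nr1d1, Nr1d2, Dbp and Tef, and the PER and CRY proteins return to the nucleus to block that activity. NR1D1 and NR1D2, also called REV-ERBα and REV-ERBβ, repress Arntl through ROR response elements, while DBP, TEF and HLF activate genes through D-box sequences. Microglia, like other macrophages, carry this clock, and Per1 and Per2 are also known to be induced acutely by cAMP signalling, and Per1 by glucocorticoids.

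Promoter sequences are shown for the measured genes that carry a known clock motif next to their start. RefSeq windows of 250 bases before a start site (GRCm38.p6) were held for 9 of the 10 genes, Per2 being the one without an entry. Each window was searched on both strands for the E-box CACGTG, the D-box TTANGTAA, the cAMP response element TGACGTCA and the ROR response element. Some genes have several start sites, and the 9 genes had 13 windows. Of these, 4 held the E-box (1 each of Per1 and Cry1 and both of Tef), and of all 32851 windows 6.02% did. The D-box was found in 1 of the 13 windows, that of Per3, and in 2.06% of all windows. The cAMP response element (1.55% of all windows) and the ROR response element (0.648%) were found in 0 of the 13. The search covered only fixed letter patterns in these 250 bases, so an absence here does not show that a gene lacks the element. The 3 windows of measured genes that held a match are shown 5′ to 3′ on the strand of the gene, with the E-box or D-box in capitals. They are Per1 at chr11:69098699-69098948 (plus strand), Cry1 at chr10:85185055-85185304 (minus strand) and Per3 at chr4:151044666-151044915 (minus strand).
Per1: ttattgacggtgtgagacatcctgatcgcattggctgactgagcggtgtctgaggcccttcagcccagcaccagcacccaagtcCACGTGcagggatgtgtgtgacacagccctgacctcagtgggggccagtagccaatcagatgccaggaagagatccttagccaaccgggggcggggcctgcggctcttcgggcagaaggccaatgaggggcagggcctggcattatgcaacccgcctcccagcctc
Cry1: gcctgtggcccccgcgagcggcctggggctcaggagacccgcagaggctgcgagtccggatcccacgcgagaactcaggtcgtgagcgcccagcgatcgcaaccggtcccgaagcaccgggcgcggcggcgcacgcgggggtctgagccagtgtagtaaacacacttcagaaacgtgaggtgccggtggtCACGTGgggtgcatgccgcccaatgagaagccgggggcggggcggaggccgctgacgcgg
Per3: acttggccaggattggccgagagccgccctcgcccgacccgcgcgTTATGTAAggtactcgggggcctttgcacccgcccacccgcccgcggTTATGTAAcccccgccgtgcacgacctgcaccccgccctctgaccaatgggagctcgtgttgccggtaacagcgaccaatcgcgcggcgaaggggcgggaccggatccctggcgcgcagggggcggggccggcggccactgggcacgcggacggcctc
Counted from the start site, the E-box lay at -166 to -161 in Per1 and at -60 to -55 in Cry1. Per3 had its D-box copies at -205 to -198 and at -158 to -151, both with the letters TTATGTAA. Such a match describes the sequence and not a bound site.

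Values are quantile normalised log2 intensities, and a difference of 1 is a doubling of signal. The share of probes well above background was 66.8% to 80.4% per array, and the number of arrays limits the precision. Slide 2 held replicate 3 of each newborn group and slide 1 the other 8 arrays, so that both adult arrays were on slide 1. Summed log2 levels of the microglia markers (7 of 8 tested) were 18.05 to 18.17 in A_FACS, 17.32 to 17.52 in NB_FACS, 15.20 to 15.96 in NB_Control and 17.09 to 17.20 in NB_Stim. The 10 probes of the 8 clock genes were well above background on all 11 arrays. A gene was called when its adjusted p from limma's moderated test was under 0.05.

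In newborn microglia the clock genes moved in both directions on culture. Compared with NB_FACS, NB_Control had less Cry1, Per2 and Nr1d1 and more Dbp, so that 3 of 8 were called lower and 1 of 8 higher, where 13.9% of all genes were called lower and 15.8% higher. Against the same NB_FACS arrays, NB_Stim had lower Cry1 and Nr1d1 and higher Dbp and Per3 (2 of 8 each way, against 15.1% lower and 16% higher among all genes). Between NB_Stim and NB_Control 0 of 8 were called in either direction (1.4% of all genes higher, 2% lower), and 4 of 8 passed at an unadjusted p under 0.05, as did 15.2% of all genes. Adult A_FACS cells had higher Per1, Per2, Nr1d1 and Nr1d2 and lower Cry1 than NB_FACS (4 of 8 higher and 1 of 8 lower, against 9.76% and 12.9% of all genes).

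Over the 4 groups, limma's F test called 6 of the 8 genes, where 48.8% of all genes were called. The exceptions were Cry2 (adjusted p 0.695) and Per3 (adjusted p 0.0896). The median log2 difference of the 8 genes was 1.00 between A_FACS and NB_FACS (-0.009 over all genes), -0.47 for culture (0.086), -0.23 for stimulated culture (0.109) and 0.02 for the cytokines (-0.001). The culture comparisons share the NB_FACS arrays, as does the age comparison, and the cytokine comparison shares its arrays with both culture comparisons.

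**Figure D1:**
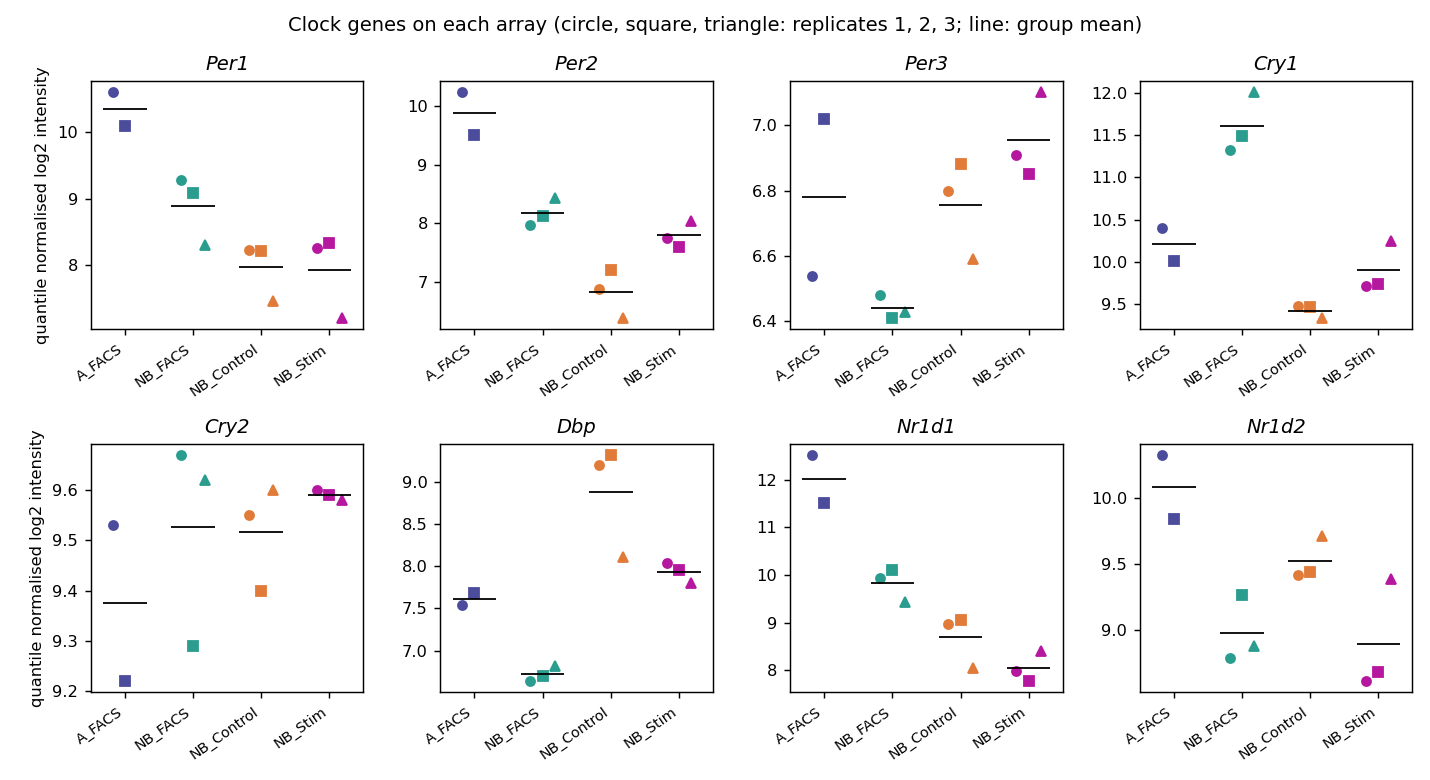
Quantile normalised log2 intensity (y axis, a separate range for each gene) of the 8 measured clock genes on the 11 arrays, by group, with the mean as a line. Cry1 was highest on the 3 NB_FACS arrays (11.32 to 12.01), Nr1d1 on the 2 A_FACS arrays (11.52 and 12.52) and Dbp was lowest on the 3 NB_FACS arrays (6.64 to 6.82).

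Among the PER repressors, Per2 was at 10.23 and 9.51 in A_FACS and at 7.98, 8.12 and 8.44 in NB_FACS. It was at 6.88, 7.21 and 6.39 in NB_Control and at 7.75, 7.60 and 8.05 in NB_Stim. The adult arrays were the highest and the NB_Control arrays the lowest, and neither overlapped any other group, while NB_Stim and NB_FACS overlapped. Per2 was 3.23-fold higher in A_FACS than in NB_FACS (log2 difference 1.69, SE 0.29, adjusted p 0.00265). It fell 2.56-fold in NB_Control (log2 difference -1.36, SE 0.26, adjusted p 0.0029). In NB_Stim the difference from NB_FACS was -0.38 on the log2 scale (95% interval -0.96 to 0.19, adjusted p 0.296). Between NB_Stim and NB_Control it was 0.97 (95% interval 0.40 to 1.55, adjusted p 0.0811), which did not pass although the arrays did not overlap.

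Per1, the member of the family best known as an acute response gene, was at 10.60 and 10.10 in A_FACS and at 9.28, 9.08 and 8.30 in NB_FACS. It was at 8.23, 8.21 and 7.46 in NB_Control and at 8.26, 8.33 and 7.20 in NB_Stim. In each newborn group the array on slide 2 was the lowest, and A_FACS lay above all newborn arrays. Per1 was 2.76-fold higher in A_FACS than in NB_FACS (log2 difference 1.46, SE 0.42, adjusted p 0.0305). That call was lost when A_FACS replicate 1 (1.21, adjusted p 0.195), A_FACS replicate 2 (1.71, 0.0629), NB_FACS replicate 2 (1.56, 0.0545) or NB_FACS replicate 3 (1.17, 0.083) was left out. The differences from NB_FACS of -0.92 in NB_Control (adjusted p 0.0947) and -0.96 in NB_Stim (adjusted p 0.0799) did not pass. With the replicate number as a block, both passed (adjusted p 0.00156 and 0.00128), and within slide 1 they were -0.96 (adjusted p 0.00662) and -0.88 (adjusted p 0.00871). Without NB_FACS replicate 3 they also passed (-1.21 and -1.25, adjusted p 0.0371 and 0.0326), and without NB_Stim replicate 3 the first did (adjusted p 0.0442). NB_Stim and NB_Control differed by -0.04 (95% interval -0.87 to 0.79).

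The gene value of Per1 averages 2 probes that did not move alike. The probe designed on XM_006532480.1 was at 9.64 and 8.95 in A_FACS, 7.25, 7.15 and 5.90 in NB_FACS, 5.33, 5.49 and 4.23 in NB_Control and 5.11, 4.88 and 3.55 in NB_Stim. The probe designed on XM_006532481.1 stayed between 10.69 and 11.78 on all 11 arrays. In a fit over 28027 probes, the first was higher in A_FACS than in NB_FACS (log2 difference 2.53, adjusted p 0.0126) and lower in NB_Control (-1.75, adjusted p 0.0293) and in NB_Stim (-2.25, adjusted p 0.00853). For the second the same differences were 0.40 (adjusted p 0.37), -0.09 (0.845) and 0.34 (0.356). The differences of the Per1 mean therefore came mainly from the first probe. The difference between the probes was not itself tested.

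Per3, the third member of the family, covered a narrow range, from 6.41 to 7.10 over all 11 arrays. It was at 6.48, 6.41 and 6.43 in NB_FACS and at 6.91, 6.85 and 7.10 in NB_Stim, which did not overlap, and the rise was 1.43-fold (log2 difference 0.51, SE 0.15, adjusted p 0.0306). Leaving out any 1 of those 6 arrays ended the call (adjusted p 0.0512 to 0.0889). The other differences of Per3 were 0.31 in NB_Control against NB_FACS (adjusted p 0.171), 0.34 in A_FACS against NB_FACS (0.201) and 0.20 between the cultures (0.643).

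**Figure D2:**
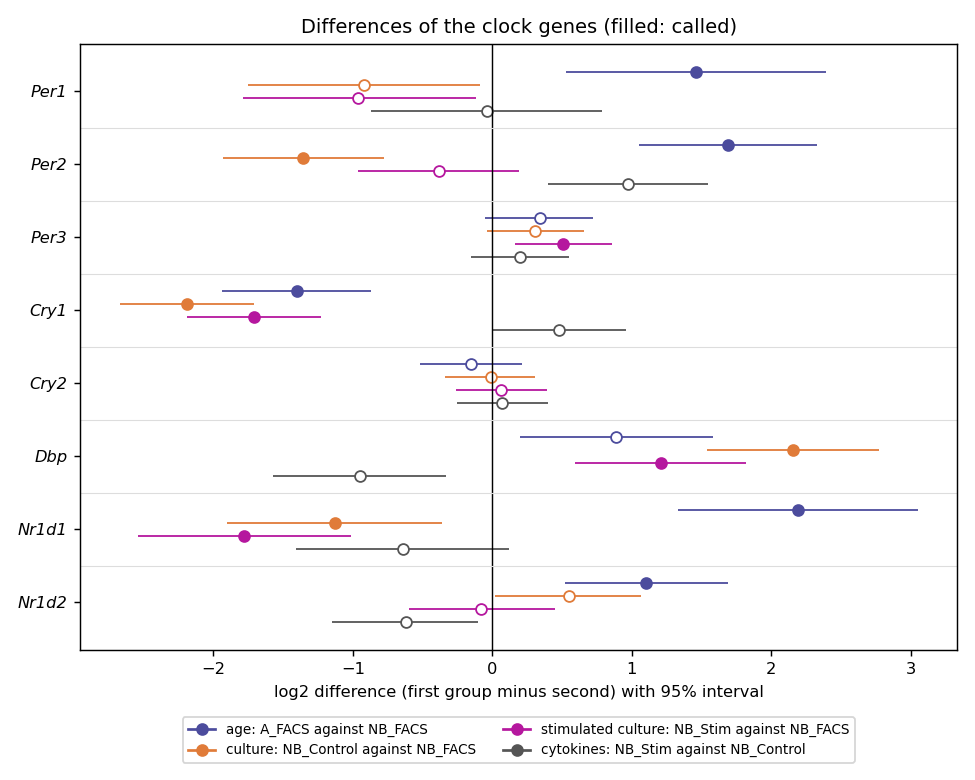
Log2 differences (x axis, first group minus second) of the 8 clock genes in 4 comparisons, with 95% intervals from limma, where filled points were called. Cry1 lay below 0 against NB_FACS in adult cells (-1.40) and both cultures (-2.19 and -1.71), whereas Nr1d1 was higher in adult cells (2.19) and lower in both cultures (-1.13 and -1.78).

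The cryptochromes bind PER proteins and are the strongest repressors of CLOCK and BMAL1. Cry1 was at 11.32, 11.49 and 12.01 in NB_FACS and at 10.40 and 10.01 in A_FACS. In the cultures it was at 9.47, 9.46 and 9.33 without and at 9.71, 9.74 and 10.24 with cytokines. The NB_FACS arrays were above all others, and the NB_Control arrays below all others. Cry1 fell 4.55-fold in NB_Control (log2 difference -2.19, SE 0.21, adjusted p 5.67e-05) and 3.27-fold in NB_Stim (-1.71, SE 0.21, adjusted p 0.000253). It was 2.64-fold lower in A_FACS (-1.40, SE 0.24, adjusted p 0.00269). These 3 calls held under all 22 alternatives tried, of which Tukey's adjustment was over group pairs and not over genes. NB_Stim and NB_Control did not overlap but differed by 0.48 (95% interval 0.00 to 0.96, adjusted p 0.329).

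Cry2, by contrast, ranged from 9.22 to 9.67 over all arrays, and its groups overlapped in every comparison. Its log2 differences were -0.01 in NB_Control against NB_FACS (95% interval -0.34 to 0.31) and 0.06 in NB_Stim against NB_FACS (-0.26 to 0.39). Between the cultures the difference was 0.07 (-0.25 to 0.40), and between A_FACS and NB_FACS it was -0.15 (-0.52 to 0.21). Some of these signs turned with the scaling, and no direction is given for Cry2.

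Dbp encodes a D-box activator whose transcript is among the most strongly cycling outputs of the clock. It was at 6.64, 6.70 and 6.82 in NB_FACS and at 7.54 and 7.68 in A_FACS. It was at 9.20, 9.32 and 8.11 in NB_Control and at 8.04, 7.95 and 7.80 in NB_Stim. The groups did not overlap: NB_FACS was lowest and NB_Control highest, with replicate 3 of NB_Control, on slide 2, more than 1 log2 unit below the other NB_Control arrays. Dbp rose 4.46-fold in NB_Control against NB_FACS (log2 difference 2.16, SE 0.28, adjusted p 0.000283) and 2.31-fold in NB_Stim (1.21, SE 0.28, adjusted p 0.00788).

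The lower Dbp of NB_Stim against NB_Control (-0.95, SE 0.28, adjusted p 0.111) did not pass. It passed without NB_Control replicate 3 (-1.34, adjusted p 0.00172), within slide 1 (-1.27, adjusted p 0.00225) and with slide as a block (-0.95, adjusted p 0.0453), but not with the replicate number as a block (adjusted p 0.0698). In A_FACS Dbp was 0.89 above NB_FACS (adjusted p 0.0665), which passed without NB_Control replicate 3 (adjusted p 0.00247) and within slide 1 (0.94, adjusted p 0.00185). Dbp also had 2 probes, and both were higher in NB_Control than in NB_FACS: 3.01 on the probe of XM_006540597.1 (adjusted p 6.24e-05) and 1.30 on that of XM_006540596.1 (adjusted p 0.0193). On the first probe NB_Stim was lower than NB_Control (-1.29, adjusted p 0.0491), and on the second the difference was -0.62 (adjusted p 0.489).

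**Figure D3:**
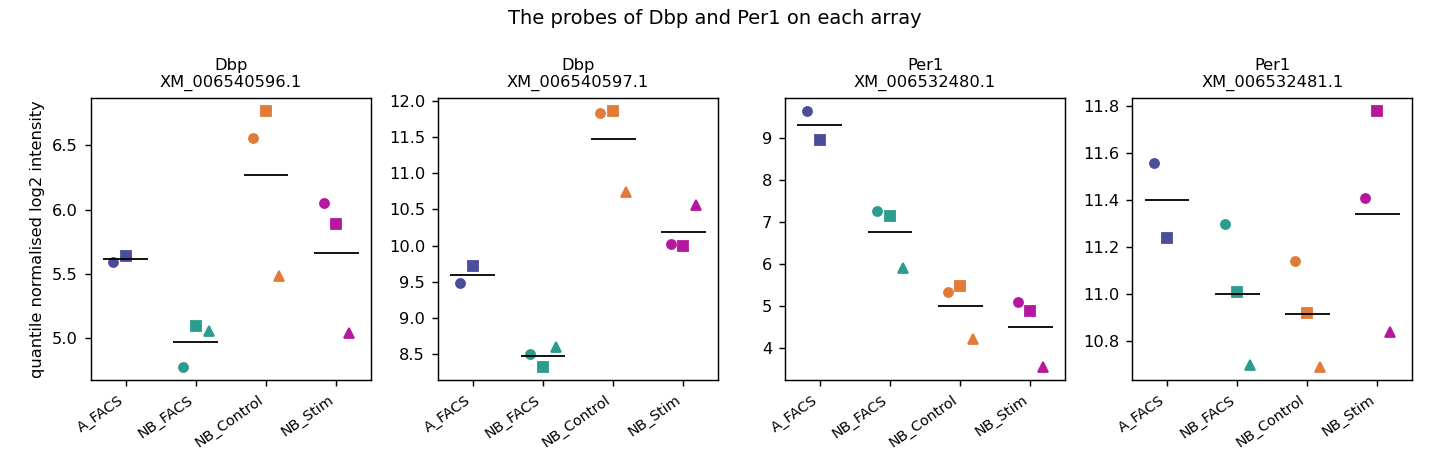
Quantile normalised log2 intensity (y axis) of the 2 probes of Dbp and the 2 probes of Per1 on the 11 arrays, by group, with the mean as a line and replicates 1, 2 and 3 as circles, squares and triangles. Both Dbp probes were highest on average in NB_Control, whereas 1 Per1 probe was at 9.64 and 8.95 in A_FACS and at 3.55 to 5.11 in NB_Stim and the other stayed between 10.69 and 11.78.

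The REV-ERB receptors form the second loop of the clock, and in macrophages they are also known to restrain inflammatory genes. Nr1d1 was at 12.52 and 11.52 in A_FACS and at 9.94, 10.11 and 9.44 in NB_FACS. It was at 8.98, 9.05 and 8.06 in NB_Control and at 7.98, 7.78 and 8.41 in NB_Stim. Adult arrays were above newborn sorted arrays and these above all cultured arrays, with overlap between the cultures alone. The adult level was 4.56-fold higher than in NB_FACS (log2 difference 2.19, SE 0.38, adjusted p 0.00315). Nr1d1 fell 2.19-fold in NB_Control (-1.13, SE 0.34, adjusted p 0.0318) and 3.42-fold in NB_Stim (-1.78, SE 0.34, adjusted p 0.00323). The NB_Control call was lost without NB_FACS replicate 1 (-1.08, adjusted p 0.0921), NB_FACS replicate 2 (-0.99, 0.111) or NB_Control replicate 3 (-0.81, 0.101). The cultures differed by -0.64 (95% interval -1.41 to 0.12, adjusted p 0.444).

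Nr1d2 was at 10.32 and 9.84 in A_FACS and at 8.79, 9.27 and 8.88 in NB_FACS. In the cultures it was at 9.42, 9.44 and 9.71 without cytokines and at 8.62, 8.69 and 9.39 with them. The adult arrays were the highest, and NB_Stim overlapped NB_FACS. Nr1d2 was 2.15-fold higher in A_FACS than in NB_FACS (log2 difference 1.1, SE 0.26, adjusted p 0.0144), a call that was lost without A_FACS replicate 1 (0.87, adjusted p 0.128). Against NB_FACS its difference was 0.55 in NB_Control (adjusted p 0.115), which passed without NB_Stim replicate 3 (adjusted p 0.0471), and -0.08 in NB_Stim (95% interval -0.60 to 0.45). Between the cultures it was -0.62 (adjusted p 0.235).

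The called culture differences had the same sign on both slides. The slides hold the arrays that gave those calls, so this is not separate support for them. On slide 1 and slide 2 respectively, the NB_Control difference from NB_FACS was -1.94 and -2.67 for Cry1, 2.59 and 1.29 for Dbp, -1.01 and -2.05 for Per2, and -1.01 and -1.38 for Nr1d1. The NB_Stim difference from NB_FACS was -1.68 and -1.77 for Cry1, -2.15 and -1.03 for Nr1d1, 1.32 and 0.98 for Dbp, and 0.43 and 0.67 for Per3. On slide 1 these differences were called, except that of Per3 in NB_Stim (adjusted p 0.0748 from limma). Slide 2 held 1 array a group, so its values have no test. Between the cultures the slides gave 0.63 and 1.66 for Per2, -1.27 and -0.31 for Dbp, and -1.14 and 0.35 for Nr1d1. Adult cells were compared on slide 1 alone, where the difference from NB_FACS was 1.99 for Nr1d1, 1.82 for Per2, 1.17 for Per1, 1.05 for Nr1d2 and -1.20 for Cry1, all called there.

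Further clock components were read from a list of 26 genes, of which 21 were tested. In A_FACS against NB_FACS 5 were higher and 0 lower: Hlf, the D-box activator related to Dbp (log2 difference 2.08, adjusted p 0.000583), Bhlhe41, an E-box repressor also called DEC2 (1.71, adjusted p 0.00171), the PER kinase Csnk1e (1.14, adjusted p 0.00335), Arntl, which encodes BMAL1 (1.08, adjusted p 0.0256), and Sfpq, an RNA-binding partner of PER (1.04, adjusted p 0.0268). Among all genes 9.76% were higher and 12.9% lower. Arntl was at 7.49 and 6.83 in A_FACS and at 6.44, 6.30 and 5.52 in NB_FACS. The groups did not overlap. Hlf was at 7.39 and 7.13 in A_FACS and between 4.77 and 5.82 on the 9 newborn arrays. The median over the 21 genes was 0.14.

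On culture 4 of the 21 were higher and 6 lower in NB_Control, beside 15.8% higher and 13.9% lower among all genes. The largest of these differences were in Sfpq (-2.28, adjusted p 0.000129), Arntl2, a paralogue of Arntl (1.5, adjusted p 0.000188), Fbxw11, a component of the ubiquitin ligase that marks PER for degradation (-1.39, adjusted p 0.00267), and the kinase Csnk1a1 (-1.20, adjusted p 0.015). In NB_Stim against NB_FACS 5 were higher and 4 lower (16% and 15.1% of all genes), led by Bhlhe41 (2.45, adjusted p 5.65e-05) and Sfpq (-2.03, adjusted p 0.000263), followed by Csnk1a1 (-1.10, adjusted p 0.0228) and Timeless (-1.05, adjusted p 0.003), a replication fork gene named after a fly clock gene. With cytokines 1 of 21 was higher than in NB_Control and 0 lower (1.4% and 2% of all genes). Bhlhe41 was at 8.56, 8.50 and 9.04 in NB_Control and at 10.06, 9.81 and 10.03 in NB_Stim (1.27, adjusted p 0.0199). It was at 7.31, 7.84 and 7.38 in NB_FACS and at 8.84 and 9.62 in A_FACS. The medians over the 21 genes were 0.05, 0.07 and 0.11 in these 3 comparisons.

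Clock-controlled output genes were read from a list of 10, of which 9 were tested. In A_FACS 3 were higher than in NB_FACS, namely Tsc22d3 (2.11, adjusted p 0.00191), Sgk1 (2.09, adjusted p 0.000641) and Klf9 (1.89, adjusted p 0.00208), and 2 were lower, of which Por (-0.99, adjusted p 0.0228) differed more, beside 9.76% higher and 12.9% lower among all genes. Tsc22d3, Sgk1, Klf9 and Fkbp5 are also known as glucocorticoid-induced genes, and for Fkbp5 this difference was -0.15 (adjusted p 0.795). In NB_Control 4 of 9 were higher and 3 lower (15.8% and 13.9% of all genes), with the largest differences in Tsc22d3 (-1.94, adjusted p 0.000923), Nampt (1.41, adjusted p 0.000275), Fkbp5 (-1.27, adjusted p 0.00791) and Tspan4 (1.25, adjusted p 0.000441). In NB_Stim against NB_FACS 3 were higher and 2 lower (16% and 15.1% of all genes), led by Sgk1 (4.06, adjusted p 2.99e-06) and Tsc22d3 (-3.29, adjusted p 4.12e-05).

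With cytokines 2 of these 9 output genes were higher and 2 lower than in NB_Control, beside 1.4% and 2% of all genes. Sgk1, a serum and glucocorticoid regulated kinase, was at 9.06, 9.01 and 8.23 in NB_Control and at 12.03, 12.05 and 11.48 in NB_Stim (3.08, adjusted p 0.000209). Fkbp5 was higher as well (1.70, adjusted p 0.0123), and Por, the electron donor of microsomal cytochromes (-1.75, adjusted p 0.00348), and Tsc22d3 (-1.34, adjusted p 0.0429) were lower. Tsc22d3 was at 10.82 and 9.61 in A_FACS, 8.11, 8.34 and 7.86 in NB_FACS, 6.10, 6.23 and 6.14 in NB_Control and 5.21, 4.81 and 4.42 in NB_Stim, so that no groups overlapped. The medians of the 9 genes were 0.00 for age, 0.31 for culture, 0.42 for stimulated culture and -0.09 for the cytokines.

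**Figure D4:**
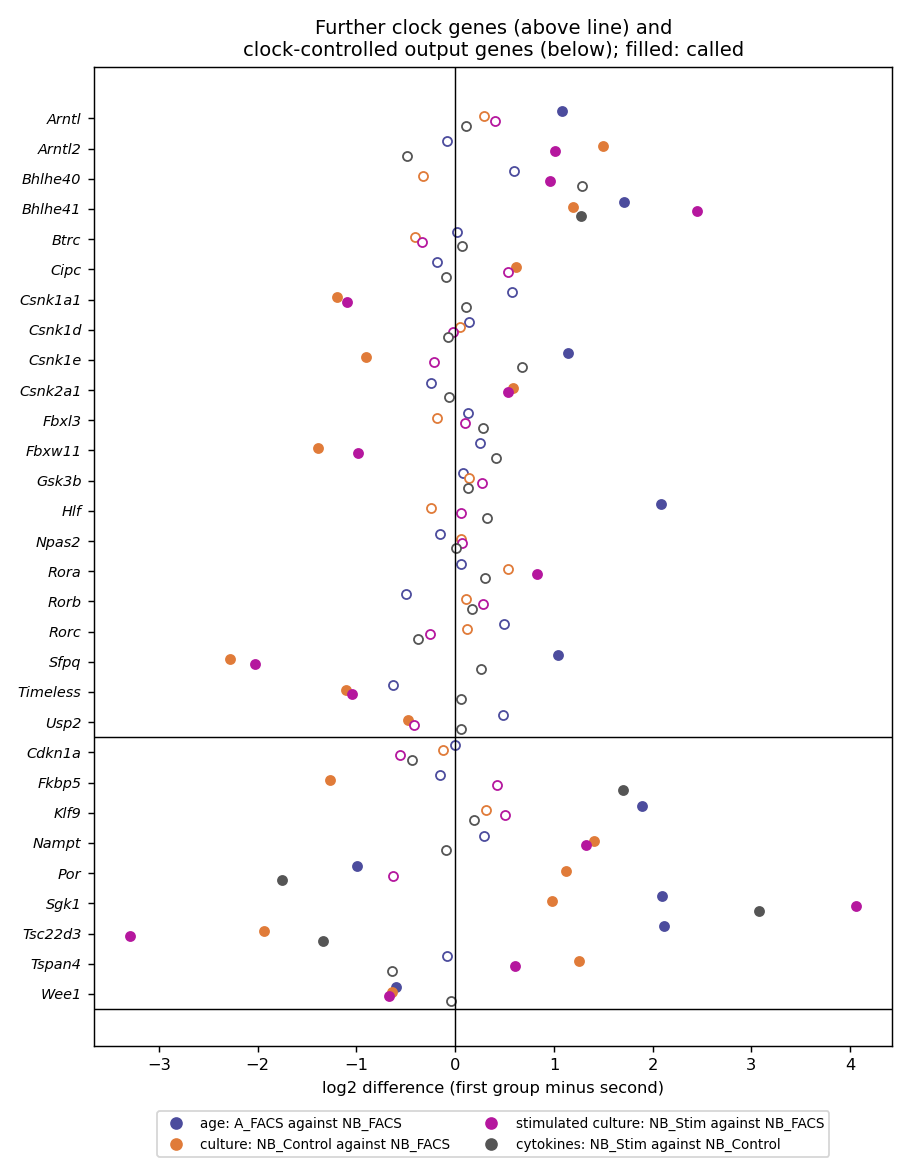
Log2 differences (x axis, first group minus second) of 21 further clock genes, above the line, and 9 clock-controlled output genes, below it, in 4 comparisons, with called differences filled. Bhlhe41 was called higher in all 4 comparisons (1.19 to 2.45), and Tsc22d3 was higher in A_FACS (2.11) and lower in the other 3 (-3.29 to -1.34).

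Other programmes also differed between the groups. For the counts below, 13.9% of all genes were called lower and 15.8% higher in NB_Control than in NB_FACS. For NB_Stim these shares were 15.1% and 16%, and for A_FACS 12.9% and 9.76%. Between the cultures 2% were lower and 1.4% higher in NB_Stim. Immediate early genes, which respond within minutes to dissociation and other stimuli, were lower in NB_Control and in NB_Stim than in NB_FACS for 16 of 16 tested genes (Egr3 -6.14 and -6.13, Klf4 -4.82 and -5.81). Egr3 was at 1.16 in NB_Control and 1.17 in NB_Stim, near the bottom of the intensity range, so the size of its difference is rough. In A_FACS 9 of 16 immediate early genes were higher than in NB_FACS, among them Zfp36 (1.97) and Klf4 (1.88). Their summed log2 level was 19.37 to 19.67 in A_FACS, 17.96 to 18.43 in NB_FACS, 15.68 to 15.89 in NB_Control and 15.38 to 15.61 in NB_Stim, and between the cultures 1 of 16 was called. Proliferation genes were lower than in NB_FACS for 12 of 12 in A_FACS (Ccnb1 -5.17), NB_Control (Mki67 -4.50) and NB_Stim (Mki67 -4.86), with summed levels of 15.12 to 15.40 in NB_FACS and 10.62 to 12.49 elsewhere. The part of either programme in the clock gene differences was not tested.

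Microglia markers were lower in NB_Control than in NB_FACS for 6 of 7 genes, led by P2ry12 (-6.44). In NB_Stim 2 of 7 markers were lower than in NB_FACS, P2ry12 (-5.41) and Tmem119 (-0.78). They were higher for 4 of 7 in NB_Stim against NB_Control (Cx3cr1 4.03, Olfml3 3.24) and for 4 of 7 in A_FACS against NB_FACS (Csf1r 2.54, Tmem119 2.18). Their part in the clock gene differences was not tested.

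Markers of other cells differed between the same groups, where the shares of all genes called are those given above. Fibroblast markers were higher in NB_Control for 5 of 7 genes and in NB_Stim for 6 of 7, with summed levels of 9.91 to 10.19 in NB_FACS, 14.89 to 15.15 in NB_Control, 14.05 to 15.23 in NB_Stim and 10.09 to 11.15 in A_FACS. In A_FACS 4 of 7 were lower than in NB_FACS (Col3a1 -4.75, Col1a1 -3.22) and 1 was higher, Tagln (2.71). Col3a1 was at 1.72 in A_FACS, near the bottom of the intensity range, so the size of its difference is rough. Border macrophage markers were lower in A_FACS for 5 of 6 genes (7.95 to 9.36, against 13.41 to 13.73 in NB_FACS) and had summed levels of 14.24 to 16.42 in the cultures. They did not move one way there: against NB_FACS 2 were higher and 2 lower in NB_Control (Ms4a7 6.66, Lyve1 -4.81), and 2 were higher and 3 lower in NB_Stim (Mrc1 -5.07, Ms4a7 5.03). The 3 tested erythroid genes summed to 17.04 to 17.44 in NB_FACS, 12.97 to 14.56 in A_FACS and 4.54 to 5.74 in the cultures. Endothelial markers were lower in NB_Control for 3 of 5 genes and in NB_Stim for 2 of 5 (Cldn5 -7.22 and -7.87). One of them, Flt1, was higher in NB_Stim than in NB_FACS (1.41) and NB_Control (2.78), and in A_FACS than in NB_FACS (1.69). Oligodendrocyte lineage markers were higher in NB_Stim than in NB_FACS for 4 of 4 tested genes, and astrocyte markers for 3 of 5. In NB_Control 1 of 4 and 2 of 5 were higher than in NB_FACS, and between the cultures 0 of either list were called. Summed levels of the oligodendrocyte lineage markers were 8.68 to 8.77 in NB_FACS, 9.43 to 10.17 in NB_Control and 10.17 to 11.90 in NB_Stim. Neuron markers were lower for 1 of 6 genes in each comparison with NB_FACS, close to the share of all genes (12.9% to 15.1%). The part of these markers of other cells in the clock gene differences was not tested.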

How the data were processed

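Total RNA of mouse microglia was hybridised to 11 single-colour Agilent arrays. The authors deposited one background-subtracted signal intensity per spot from Feature Extraction 11.5.1.1, in arbitrary units and not normalised between arrays. The authors also deposited an intensity file covering the series, whose 62927 entries were checked against the scanner files (relative tolerance 1e-05, 0 differed).

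The deposited intensity was put on the log2 scale and quantile normalised over all probes in limma 3.58.1 under R 4.3.3, with data.table (version 1.17.8) for reading. Spots flagged as outliers were left out, and a probe was kept if all arrays of 1 group or more had it well above background. Probes were named by RefSeq accession through a mouse gene table (GRCm38.p6), which matched 36264 of 60037 probes, and 28027 kept probes were averaged to 19555 genes. Clock and Tef had no matched probe.

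Groups came from sample titles. Per the study's methods, replicates were independent biological samples. One mean per group was fitted in limma over all 11 arrays (7 residual and 2.69 prior degrees of freedom), with Benjamini-Hochberg adjustment over all genes in each comparison. The fit was tried on simulated data with independent noise on each array, which lacks the shared deviations of slides and replicates.

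The 10 members and all gene lists were chosen with earlier results of these data known. All members are named. Of the further clock genes and output genes those called are named, up to the 4 with the largest absolute difference in a comparison, while genes of the other lists serve only as examples, taken from the 2 largest differences in a comparison. Exceptions chosen after their values were seen are Tagln, Flt1, the difference of Fkbp5 with age, and the values in every array of Arntl, Hlf, Bhlhe41, Sgk1 and Tsc22d3. Lists for immediate early genes, proliferation and microglia, astrocyte, neuron, oligodendrocyte lineage, endothelial, fibroblast, border macrophage and erythroid markers are given by counts or summed levels.

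Arrays with the same replicate number deviated together from their group means (correlations 0.112 to 0.489 over the newborn groups), although replicate 2 correlated best with replicate 1 in 2 of 3 comparisons. The numbers come from the sample titles, and number 3 is also slide 2. The 22 alternatives were 75th percentile scaling, normexp background correction, no filter on dim probes, only probes well above background on all 11 arrays, the brightest probe of a gene, slide as a block, slide 1 alone, the replicate block, averaged culture replicates 1 and 2, only the groups compared, each array left out, and Tukey's adjustment over group pairs, which the study's methods name. Each probe alone and slide 2 alone were added after seeing the data. Figures were drawn with matplotlib 3.10.9.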

Additional observations from a re-analysis of the deposited data

How the results depend on the processing

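Over the 22 alternatives, the calls of Cry1 in culture, stimulated culture and age, of Dbp and Per2 in culture, of Dbp and Nr1d1 in stimulated culture, and of Per2 and Nr1d1 in age were kept in all. Tukey's adjustment was counted there over group pairs alone. With Benjamini-Hochberg over genes as well, it called 1 clock gene in stimulated culture and 2 in age, so some of these calls were then lost. Nr1d1 in culture was called in 17, Nr1d2 in age in 21, Per1 in age in 15 and Per3 in stimulated culture in 14, and the cause was not tested. Without single arrays the number of clock genes called was 3 to 6 for age, with 3 without A_FACS replicate 1, and 0 to 1 for the cytokines, with Dbp without NB_Control replicate 3. For the cytokines it was 1 with normexp, the brightest probe, slide as a block or slide 1 alone (Dbp each time), and 1 (Per2) with Tukey's adjustment. The pairing of replicates, as a replicate block, gave 5 clock genes in culture, 5 in stimulated culture, 5 in age and 0 for the cytokines. The fit added Per1 in culture and stimulated culture and changed no other call of the 8 genes.

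Signs turned only in differences that were not called. Cry2 in culture was 0.02 with 75th percentile scaling, 0.01 with averaged culture replicates and -0.13 to 0.06 without single arrays. Its cytokine difference was -0.04 and its stimulated culture difference -0.02 with 75th percentile scaling, the latter -0.06 to 0.13 without single arrays. Nr1d2 in stimulated culture was 0.05 with averaged replicates and -0.32 to 0.07 without single arrays. Per1 under cytokines was 0.13 with normexp, 0.43 with the brightest probe or that probe alone, 0.08 within slide 1 and -0.29 to 0.33 without single arrays, and in stimulated culture it was 0.34 with the brightest probe or that probe alone. Over all genes the cytokine comparison called 666 genes, 117 with averaged replicates, 304 to 704 without single arrays, 1009 with normexp, 1196 with the replicate block, 1475 with slide as a block, 1032 within slide 1 and 1589 with Tukey's adjustment. The age comparison called 4436, 2923 with only its groups and 2456 without A_FACS replicate 1. With Tukey's adjustment, before and after Benjamini-Hochberg, the clock genes called were 3 and 3 in culture, 1 and 0 for the cytokines, 4 and 1 in stimulated culture and 4 and 2 in age. Over all genes the adjusted counts were 3545 in culture (5811 with limma), 183 for the cytokines, 3619 in stimulated culture (6083 with limma) and 2014 in age.

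With 2 or 3 arrays a group, small differences have wide intervals, so an uncalled difference does not show equal levels. Replicates 1 and 2 of each culture lay closer to each other (median absolute log2 difference 0.119 and 0.128) than to replicate 3 (0.298 to 0.363), and replicate 3 was on the other slide. The same held in NB_FACS, with 0.169 between replicates 1 and 2 and 0.363 and 0.308 from these to replicate 3. The time of collection is not given, so a difference in clock phase between groups and a difference in mean level cannot be told apart.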
